A study of Mus musculus with 6 samples.

Results

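Resident macrophages and monocytes of the heart were followed through 10 marker genes, Csf1r, Adgre1, Mrc1, Cd68, Lyz2, Cd163, F13a1, Ccr2, Fcgr3 and Ctss. They were taken by gene symbol from a table of 78409 genes, and all 10 were found there. The hearts came from mice aged 11 months, 3 in which Ybx1, the gene of an RNA- and DNA-binding Y-box protein, was knocked out in cardiomyocytes and 3 littermate controls. Each heart gave 1 RNA-seq library. The sources used here do not state the driver of the deletion, the strain or the sex, nor whether tissue was pooled. The p-values therefore measure the spread between these 6 libraries.

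Macrophages live among the cardiomyocytes of the healthy heart, depend on signals through the CSF1 receptor, and clear debris and dying cells. Monocytes enter from the blood, drawn through the chemokine receptor CCR2, and can turn into macrophages, more so after injury. The deletion was directed at cardiomyocytes, a different cell type from the one that these genes mark. In bulk heart RNA, fewer cells of a type and less RNA per cell cannot be told apart.

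Promoter sequence is shown for 3 members that went apart in knockout heart 3, where Lyz2 and Ctss had the highest of their 6 values and Cd163 its lowest. Each stretch covers the 250 bases before a RefSeq gene start on GRCm38.p6, read 5′ to 3′ on the gene's strand. The Ctss window is chr3:95526536-95526785 on the plus strand, the Lyz2 window chr10:117282273-117282522 on the minus strand and the Cd163 window chr6:124304401-124304650 on the plus strand. Capitals mark GAGGAA or its reverse complement TTCCTC, a sequence bound by PU.1, a transcription factor that myeloid cells need. Forms of the PU.1 site without GAGGAA were not searched for.
Ctss: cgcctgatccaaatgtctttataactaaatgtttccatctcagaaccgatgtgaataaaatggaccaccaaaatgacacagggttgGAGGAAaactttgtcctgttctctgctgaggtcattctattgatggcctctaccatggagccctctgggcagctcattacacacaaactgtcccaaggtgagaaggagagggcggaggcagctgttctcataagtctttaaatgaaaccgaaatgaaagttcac
Lyz2: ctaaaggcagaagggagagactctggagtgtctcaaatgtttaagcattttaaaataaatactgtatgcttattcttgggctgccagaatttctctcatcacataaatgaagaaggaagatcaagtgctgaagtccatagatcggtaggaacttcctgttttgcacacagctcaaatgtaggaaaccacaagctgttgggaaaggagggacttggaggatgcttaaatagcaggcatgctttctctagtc
Cd163: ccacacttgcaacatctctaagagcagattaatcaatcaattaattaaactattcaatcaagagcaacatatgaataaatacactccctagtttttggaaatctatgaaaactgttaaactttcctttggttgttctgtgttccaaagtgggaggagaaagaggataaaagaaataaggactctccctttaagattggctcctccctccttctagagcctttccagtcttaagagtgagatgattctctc

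The Ctss window holds the motif once, starting 164 bases before the gene start, and the Lyz2 and Cd163 windows do not hold it on either strand. The 8 members with an entry had 10 windows, since a gene can have more than 1 start, and 6 of these held it on either strand, beside 23.3% of all 32851 windows of this length. They belong to Cd68, Ctss, Fcgr3, Mrc1 and 1 of the starts of F13a1. The windows of Fcgr3 overlap, and their hits, 6 and 15 bases before the respective starts, are the same site counted again. The longer GAGGAAGT, which contains the shorter motif, was in none of the members' windows and in 2.44% of all windows.

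No member was called between knockout and control hearts. All 10 passed the filter on low values, at least 1 count per 1000000 (CPM) in at least 3 of the 6 libraries, which kept 13717 genes. By edgeR's quasi-likelihood test with Benjamini-Hochberg adjustment over these genes the members' adjusted p-values were 0.694 to 0.903, and 0 members were called beside 0% of all tested genes. None had an unadjusted p under 0.05, beside 5.14% of all tested genes, and DESeq2 called none, beside 0.109%. The fold changes, knockout relative to control, lay above 0 for 9 of the 10, beside 51.1% of all tested genes, and Cd163 was below 0. Their median was 0.35 on the log2 scale, beside 0.01 over all tested genes. That median was 0.17 without knockout heart 3, 0.21 without knockout heart 1 and 0.21 without control heart 2. For each of the 10 the groups overlapped, whereas 12.1% of all tested genes had groups that did not, 6.28% with all knockouts above and 5.84% with all knockouts below.

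Levels are printed as CPM after scaling by the trimmed mean of M-values (TMM), in the order of hearts 1, 2 and 3. The counts behind them ran from 13 for Cd68 in control heart 2 to 1472 for Lyz2 in knockout heart 3, in libraries of 12270796 to 15141525 counts.

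**Figure D1:**
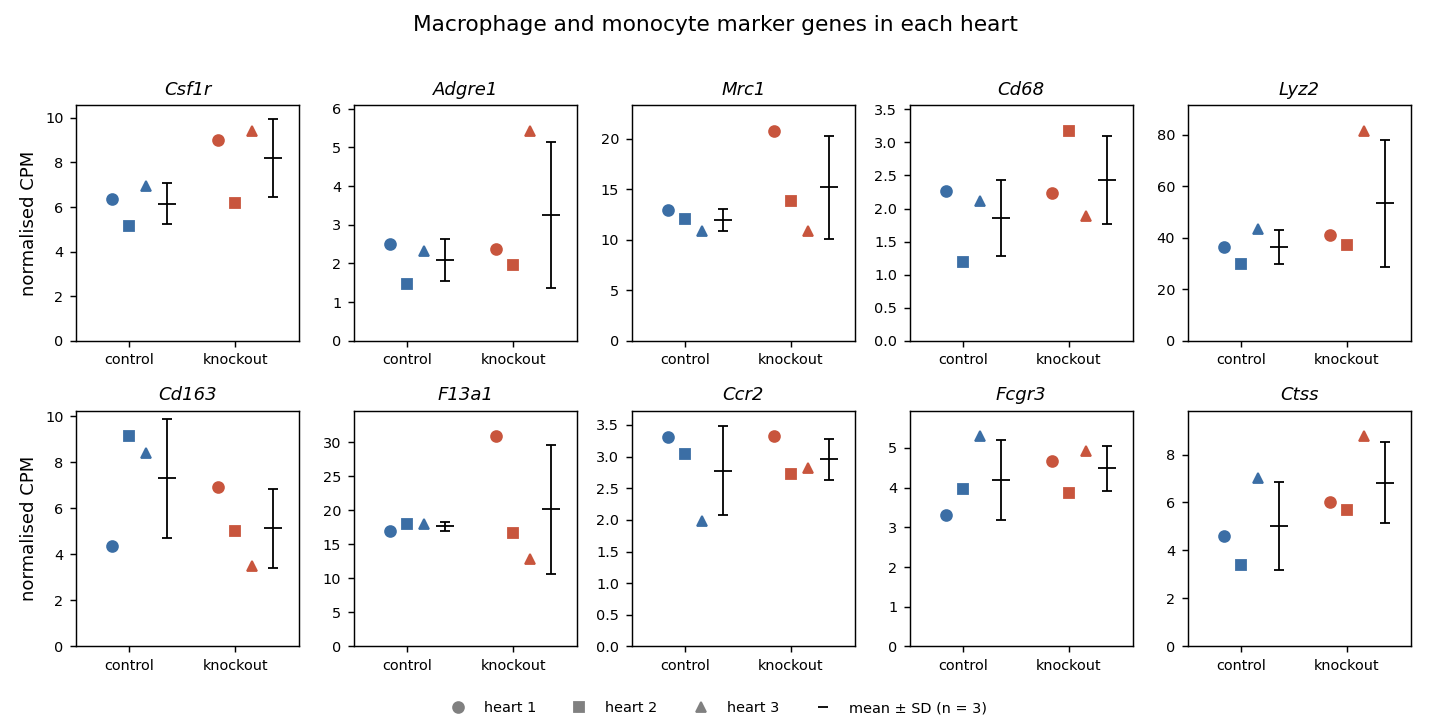
Normalised CPM of each of the 10 genes in 3 control hearts (blue) and 3 knockout hearts (red), with marker shape for the heart number and a black bar for the mean ± SD (n = 3), each panel on its own axis. The groups overlap in every panel, and the highest knockout value belongs to heart 3 for Adgre1 (5.43), Lyz2 (81.6) and Ctss (8.76) and to heart 1 for Mrc1 (20.8) and F13a1 (30.9).

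Csf1r and Adgre1 encode surface receptors by which macrophages are defined. Csf1r (ENSMUSG00000024621), the receptor of the growth factors CSF1 and IL-34, had 6.37, 5.16 and 6.94 CPM across the controls and 9.01, 6.20 and 9.42 CPM across the knockouts. Knockout hearts 1 and 3 lay above every control and knockout heart 2 among them. The means were 6.16 ± 0.912 and 8.21 ± 1.75 CPM (SD, n = 3 each), a log2 fold change of 0.41 (SE 0.23, 95% interval -0.11 to 0.94). Exons of Csf1r overlap those of Hmgxb3 on the opposite strand in GENCODE M21, and no step of the described protocol keeps strand, so reads there are uncertain. Hmgxb3 was highest in control heart 2 (18.2 CPM), where Csf1r was lowest, and lowest in knockout heart 3 (6.76 CPM), where Csf1r was highest.

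Adgre1 (ENSMUSG00000004730), which encodes the F4/80 antigen of mouse macrophages, had 2.50, 1.47 and 2.31 CPM across the controls and 2.37, 1.97 and 5.43 CPM across the knockouts. Knockout heart 3 alone stood above the rest, and the other 5 hearts lay within 1.47 to 2.50 CPM. Its log2 fold change was 0.64 (SE 0.43, 95% interval -0.33 to 1.61), and 0.04 without that heart. The related Adgre4 had 2 to 11 counts a library and was not tested.

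Lyz2, Ctss and Cd68 encode proteins of phagocyte granules and lysosomes. Lyz2 (ENSMUSG00000069516), the lysozyme of macrophages and neutrophils, had 36.3, 29.8 and 43.3 CPM across the controls and 41.3, 37.1 and 81.6 CPM across the knockouts. Knockout hearts 1 and 2 lay within the control range and knockout heart 3 above it. The difference was 0.55 (SE 0.31, 95% interval -0.16 to 1.26) on the log2 scale, and 0.10 without knockout heart 3. Its close paralogue Lyz1, which may share reads with it, had 2 to 12.5 counts a library, where Lyz2 had 323 to 1472.

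Ctss (ENSMUSG00000038642), cathepsin S, a protease that trims the invariant chain of MHC class II, had 4.597, 3.41 and 7.01 CPM across the controls and 6.03, 5.67 and 8.76 CPM across the knockouts. Control heart 3 lay above knockout hearts 1 and 2. Its log2 fold change was 0.44 (SE 0.30, 95% interval -0.25 to 1.13), with 0.21 without knockout heart 3, 0.22 without control heart 2 and 0.77 without control heart 3. Cd68 (ENSMUSG00000018774), a glycoprotein of late endosomes and lysosomes, had 2.26, 1.20 and 2.12 CPM across the controls and 2.24, 3.18 and 1.88 CPM across the knockouts. It was the 1 member with its highest value in knockout heart 2. The difference came to 0.37 (SE 0.34, 95% interval -0.42 to 1.15) on the log2 scale, 0.12 without knockout heart 2 and 0.13 without control heart 2.

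Mrc1, F13a1 and Cd163 are typical of resident macrophages. Mrc1 (ENSMUSG00000026712), the mannose receptor CD206, which lymphatic endothelium also makes, had 12.98, 12.1 and 10.8 CPM across the controls and 20.8, 13.8 and 10.9 CPM across the knockouts. Knockout heart 1 was the high one, and knockout heart 3 lay within the control range. Its log2 fold change was 0.34 (SE 0.25, 95% interval -0.23 to 0.92), 0.05 without knockout heart 1 and 0.54 without knockout heart 3.

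F13a1 (ENSMUSG00000039109), the A subunit of clotting factor XIII, which macrophages and platelets make, had 16.9, 17.96 and 17.99 CPM across the controls and 30.9, 16.6 and 12.9 CPM across the knockouts. The controls lay close together, knockout heart 1 above all of them and knockout hearts 2 and 3 below all of them. On the log2 scale this gave 0.19 (SE 0.31, 95% interval -0.50 to 0.89), with -0.26 without knockout heart 1 and 0.43 without knockout heart 3. The opposite-strand gene Gm30489, whose exons overlap F13a1 in GENCODE M21, had 0 counts in all 6 libraries.

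Cd163 (ENSMUSG00000008845), the scavenger receptor for haptoglobin-bound haemoglobin, was the member below 0. It had 4.35, 9.12 and 8.40 CPM across the controls and 6.91, 4.99 and 3.49 CPM across the knockouts. Every knockout lay below control hearts 2 and 3, while control heart 1 was within the knockout range. The means were 7.29 ± 2.57 and 5.13 ± 1.71 CPM (SD, n = 3 each), a log2 fold change of -0.51 (SE 0.34, 95% interval -1.29 to 0.27). With any 1 library left out it remained below 0, from -0.79 without knockout heart 1 to -0.29 without knockout heart 3.

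Ccr2 and Fcgr3 encode surface receptors that monocytes carry. Ccr2 (ENSMUSG00000049103), the receptor through which monocytes follow CCL2, had 3.31, 3.04 and 1.98 CPM across the controls and 3.32, 2.72 and 2.83 CPM across the knockouts. Knockout hearts 2 and 3 lay inside the control range and knockout heart 1 was level with control heart 1. Its log2 fold change was 0.10 (SE 0.28, 95% interval -0.54 to 0.73), an interval from 0.689-fold to 1.66-fold. It was -0.10 without control heart 3 and 0.24 without control heart 1.

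Fcgr3 (ENSMUSG00000059498), an activating receptor for antibody-coated particles, had 3.31, 3.96 and 5.29 CPM across the controls and 4.67, 3.86 and 4.93 CPM across the knockouts. All knockout values lay inside the control range. The difference was 0.10 (SE 0.25, 95% interval -0.47 to 0.67) on the log2 scale, -0.058 without control heart 1 and 0.31 without control heart 3. The inhibitory Fcgr2b, whose extracellular part is similar, lay within 4.97 to 10.1 CPM over all hearts.

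Precision differed by gene. The 95% interval stayed under a 2-fold rise for 6 of the 10 members and above a 2-fold fall for 9. Standard errors ran from 0.23 for Csf1r to 0.43 for Adgre1 on the log2 scale.

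**Figure D2:**
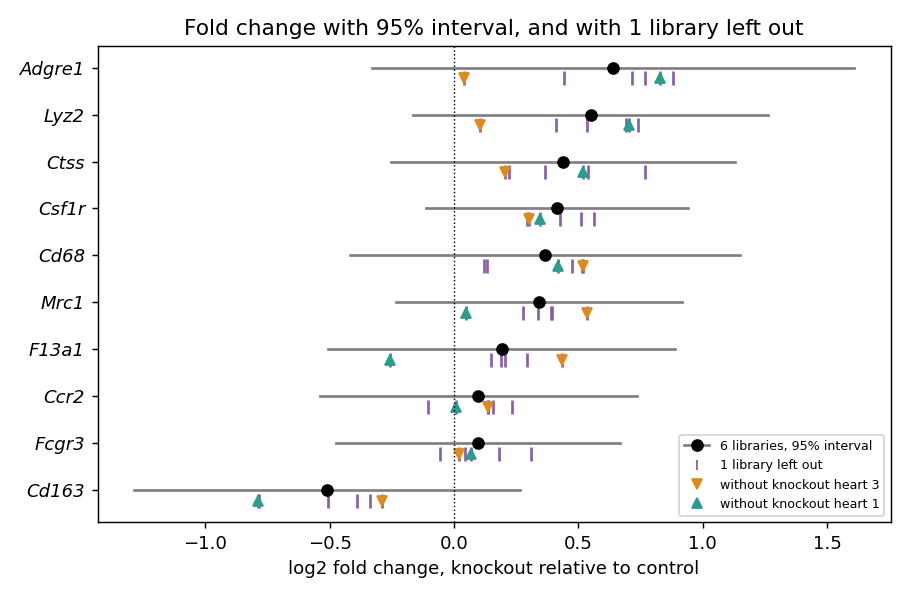
Log2 fold change of each member, knockout relative to control, with all 6 libraries (black point), its 95% confidence interval (grey line) and the values with 1 library left out (ticks). Every interval includes 0, and leaving out knockout heart 3 takes Adgre1 to 0.04 and Lyz2 to 0.10, while leaving out knockout heart 1 takes F13a1 to -0.26 and Mrc1 to 0.05.

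The members did not share one order of hearts. Knockout heart 3 had the highest value for 4 members, beside 33.9% of all tested genes, and knockout heart 1 for 3, beside 14.6%. Control heart 2 had the lowest for 5 members, beside 25.2% of all tested genes, and knockout heart 3 for 2, F13a1 and Cd163, beside 34.3%. The 10 genes summed to 92.9, 87.1 and 106 CPM in controls and 127, 96.2 and 142 CPM in knockouts. Without Lyz2, the largest contributor, the sums were 56.6, 57.4 and 62.9 CPM in controls and 86.2, 59.1 and 60.6 CPM in knockouts. Knockout heart 1 then stood alone, and knockout hearts 2 and 3 lay within the control range.

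Ratios of counts within a library do not depend on scaling between libraries. Counts of Lyz2 per count of Csf1r were 5.70, 5.77 and 6.23 in controls and 4.58, 5.99 and 8.66 in knockouts. For Cd163 the ratio to Csf1r was 0.684, 1.77 and 1.21 in controls and 0.767, 0.805 and 0.371 in knockouts, and for F13a1 it was 2.66, 3.48 and 2.59 in controls and 3.42, 2.68 and 1.37 in knockouts. Knockout heart 3 held the highest Lyz2 ratio of the 6 and the lowest Cd163 and F13a1 ratios, and the groups overlapped in all 3. The ratio of Ccr2 to Csf1r was 0.519, 0.589 and 0.286 in controls and 0.368, 0.439 and 0.300 in knockouts, with every knockout inside the control range.

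Against the mean log2 level of the other 9 members, Csf1r varied least over the 6 libraries (SD of the log2 ratio 0.17), followed by Fcgr3 (0.19), and Cd163 varied most (0.64), ahead of Adgre1 (0.49). Among 52 tested genes of the related lists and of leukocytes in general with a mean of at least 5 CPM, those closest to the members' mean level over the 6 libraries were Grn (0.02), C1qa (0.12), Grb2 (0.19), Ctsa (0.19) and Ctsz (0.20), by the same SD. Grn encodes progranulin and C1qa a chain of complement C1q.

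Per kilobase of exon in GENCODE M21, the control mean was highest for Lyz2 at 27.7 CPM, then Ctss at 3.69 and F13a1 at 2.62, and lowest for Ccr2 at 0.411, below Adgre1 at 0.647. The lengths take in all annotated exons of a gene, and how evenly reads covered them was not tested, so this order is uncertain.

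**Figure D3:**
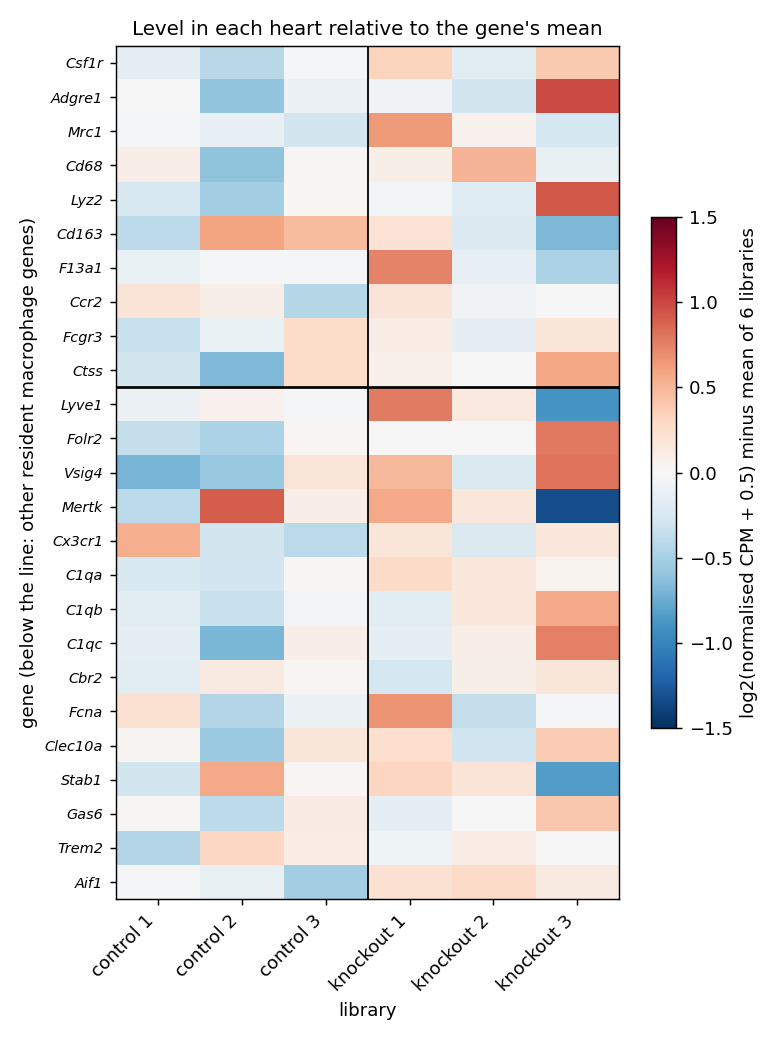
Level of the 10 members (above the black line) and of 15 other genes of resident macrophages (below it) in each library, as log2(normalised CPM + 0.5) minus the gene's mean over the 6 libraries, red for higher and blue for lower. Knockout heart 3 is high for Lyz2 (81.6 CPM) and C1qc (42.0 CPM) and low for Cd163 (3.49 CPM) and Lyve1 (15.8 CPM).

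Other genes of resident macrophages also had both high and low values in knockout heart 3. Of 18 such genes 15 were tested, 12 above 0 and 3 below, with a median log2 fold change of 0.25 and none called in either direction. Knockout heart 3 was highest for 7 of the 15, beside 33.9% of all tested genes, and lowest for 3, beside 34.3%. These 3 were Mertk, a receptor for dying cells, the scavenger receptor Stab1 and the hyaluronan receptor Lyve1, all named after their values were seen. Mertk was at 2.22 CPM there and within 4.68 to 12.3 CPM in the other hearts, Stab1 at 14.5 against 21.7 to 39.2 CPM, and Lyve1 at 15.8 against 27.7 to 51.0 CPM. The fold change of each turned with 1 library left out, Mertk from -0.33 to 0.11 without control heart 2, Stab1 from -0.18 to 0.11 without knockout heart 3 and Lyve1 from 0.18 to -0.27 without knockout heart 1.

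By smallest p the resident macrophage genes were Vsig4, Folr2 and C1qa, each with an adjusted p of 0.694 in edgeR's test. C1qa had 31.8, 30.3 and 37.8 CPM across the controls and 45.5, 41.7 and 38.7 CPM across the knockouts, every knockout above every control (log2 fold change 0.33, 95% interval -0.07 to 0.73). Folr2, a folate receptor, had 2.26, 2.03 and 3.11 CPM across the controls and 3.05, 3.03 and 5.599 CPM across the knockouts (0.66, 95% interval -0.10 to 1.41, and 0.29 without knockout heart 3). Vsig4, a complement receptor, had 0.887, 1.01 and 2.05 CPM across the controls and 2.64, 1.44 and 3.44 CPM across the knockouts (0.91, 95% interval -0.09 to 1.91, with 1.40 without control heart 3 and 0.60 without knockout heart 3).

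Among ligands and signalling proteins of the CSF1 receptor, 10 of 11 genes were tested, 4 above 0 and 6 below, with none called. Their median log2 fold change of -0.12 changed sign with total-count scaling (0.04), in limma-trend (0.07) and without knockout heart 3 (0.02). The ligand Csf1, named after its values were seen, had 14.5, 16.8 and 14.6 CPM across the controls and 25.5, 16.3 and 19.5 CPM across the knockouts, with overlapping groups (0.42, 95% interval -0.058 to 0.90, and 0.23 without knockout heart 1). The other ligand, Il34, had 3.15, 3.59 and 2.78 CPM across the controls and 2.17, 2.34 and 2.00 CPM across the knockouts, every knockout below every control (-0.54, 95% interval -1.11 to 0.02). Tyrobp, the adaptor DAP12 of myeloid receptors, had 5.08, 3.13 and 4.37 CPM across the controls and 5.22, 7.79 and 7.10 CPM across the knockouts, every knockout above every control (0.67, 95% interval 0.08 to 1.26). The kinase Syk, which acts downstream of Tyrobp, had 8.15, 15.7 and 7.08 CPM across the controls and 6.44, 7.56 and 3.16 CPM across the knockouts (-0.85, 95% interval -1.74 to 0.04, with -0.43 without control heart 2 and -0.54 without knockout heart 3). The adjusted p was 0.694 for each of these 4 in edgeR's test.

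Of 11 transcription factors of myeloid cells, all tested, 7 lay above 0 and 4 below with none called. The median of 0.10 was -0.01 without control heart 1, -0.02 without control heart 2 and -0.12 without knockout heart 1, and 0.16 without control heart 3 and 0.16 without knockout heart 3. Spi1, the gene of PU.1, named after its values were seen, had 1.94, 1.47 and 1.79 CPM across the controls and 2.44, 1.29 and 3.10 CPM across the knockouts (0.40, 95% interval -0.42 to 1.23, with 0.11 without knockout heart 3 and 0.66 without knockout heart 2). Nr4a1, an immediate early gene that Ly6C-low monocytes need, had the smallest p of the list, with 10.7, 5.80 and 4.89 CPM across the controls and 14.4, 8.24 and 20.8 CPM across the knockouts (1.03, 95% interval 0.14 to 1.92, edgeR adjusted p = 0.694, and 0.67 without knockout heart 3).

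Genes of blood monocytes were sparse. Of 13 such genes 5 passed the filter, 4 above 0 and 1 below, none called, with a median of 0.34, which was 0.06 without control heart 1, 0.08 without knockout heart 1 and 0.61 without control heart 3. Ly6c2, the Ly6C antigen, had 1.81, 1.52 and 1.49 CPM across the controls and 0.915, 1.44 and 1.44 CPM across the knockouts (-0.29, 95% interval -1.02 to 0.43, and -0.12 without knockout heart 1). Itgal, an integrin of leukocytes, had 1.77, 1.11 and 0.860 CPM across the controls and 2.37, 1.89 and 2.38 CPM across the knockouts (0.84, 95% interval 0.05 to 1.62). Cd14, a co-receptor for lipopolysaccharide, had 2.58, 1.20 and 1.72 CPM across the controls and 2.85, 2.27 and 3.94 CPM across the knockouts (0.72, 95% interval -0.09 to 1.53, and 0.47 without knockout heart 3).

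Chemokines that attract monocytes lay above 0. Of 13 chemokine and receptor genes 8 were tested, all 8 above 0, with a median of 0.52 and none called. That median was 0.39 without control heart 2 and 0.81 without control heart 3. Without knockout heart 2, and likewise without knockout heart 3, 7 of the 8 lay above 0. Ccl2, a ligand of CCR2, had 1.53, 1.01 and 0.397 CPM across the controls and 3.25, 1.89 and 2.27 CPM across the knockouts, a log2 fold change of 1.35 (SE 0.47, 95% interval 0.29 to 2.41). Ccl7, another ligand of CCR2, had 1.37, 1.29 and 1.124 CPM across the controls and 2.1003, 2.34 and 2.83 CPM across the knockouts, a log2 fold change of 0.95 (SE 0.29, 95% interval 0.29 to 1.60). Cx3cl1, the ligand of CX3CR1, had 5.56, 2.58 and 5.16 CPM across the controls and 7.93, 5.597 and 9.53 CPM across the knockouts, a log2 fold change of 0.79 (SE 0.32, 95% interval 0.06 to 1.52). These 3 were named for the smallest p of the list, each with an adjusted p of 0.694 in edgeR's test. They were the 3 of its 8 tested genes with every knockout above every control, beside 6.28% of all tested genes. Choice by p favours genes whose groups do not overlap, so this is no separate support. Counts of Ccl2 were 6 to 19 across the controls and 25 to 48 across the knockouts. Those of Ccl7 were 14 to 17 and 31 to 51. Without control heart 2, Cx3cl1 was at 0.51. Its receptor gene Cx3cr1 had 1.37, 0.553 and 0.463 CPM across the controls and 0.949, 0.605 and 0.942 CPM across the knockouts, with overlapping groups (0.09, 95% interval -1.03 to 1.20). Whether Ccl2 and Ccl7 differ in response from their receptor gene Ccr2 was not tested.

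Of 5 further Fc receptor genes 3 were tested, all above 0 and none called. Their log2 fold changes were 0.46 for Fcer1g, 0.45 for Fcgr2b and 0.06 for the neonatal receptor Fcgrt, and 0.21, 0.27 and -0.16 without knockout heart 3. Without control heart 3, Fcgr2b was at 0.68, and without knockout heart 1, Fcgrt was at 0.25. Of 18 cathepsins and lysosomal proteins, made by most cells of the heart, all 18 were tested and lay above 0, with none called and a median of 0.30, which was 0.16 without knockout heart 3. Control heart 2 was lowest for 14 of the 18, beside 25.2% of all tested genes, and knockout heart 3 highest for 13, beside 33.9%. Cathepsin B, Ctsb, had 75.0, 55.4 and 94.0 CPM across the controls and 97.6, 97.4 and 130.4 CPM across the knockouts, every knockout above every control (0.54, 95% interval -0.01 to 1.09, and 0.35 without control heart 2). Of 8 further scavenger and lectin receptors 5 were tested, 3 above 0 and 2 below, none called, with a median of 0.13, which ran from -0.02 without knockout heart 3 to 0.24 without control heart 1.

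**Figure D4:**
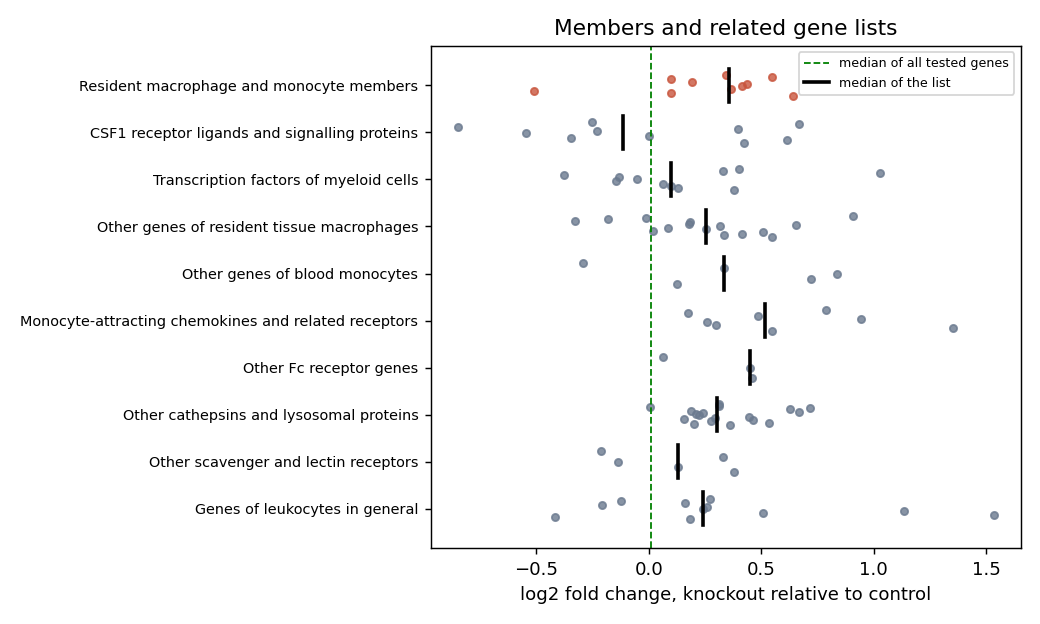
Log2 fold change, knockout relative to control, of each tested gene of the 10 members (red) and of 9 related lists (grey), with list medians (black bars) and the median of all tested genes (dashed line, 0.01). The members' median is 0.35, that of the chemokine row 0.52 and that of the CSF1 receptor signalling row -0.12.

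Markers of other cells were measured beside the members. Of 11 genes of leukocytes in general, all tested, 8 lay above 0 with none called and a median of 0.24, which was 0.15 without knockout heart 1. Cd53 had the smallest p of the list (edgeR adjusted p = 0.694). It had 2.097, 1.38 and 1.65 CPM across the controls and 3.73, 2.80 and 4.77 CPM across the knockouts (1.14, 95% interval 0.44 to 1.83). Below 0 were Ptprc (-0.12), Laptm5 (-0.21) and Cd37 (-0.42), named after their values were seen. The 11 neutrophil genes, which bear on Lyz2, summed to 3.87 to 6.02 CPM in controls and 7.70 to 13.4 CPM in knockouts. Of these, 3 were tested, S100a8, S100a9 and Mmp9, and they made up most of each sum. The groups overlapped for every untested gene of the list. Among the untested, Ltf had 0 counts in all 6 hearts and Ly6g at most 0.0756 CPM. Csf3r, named after its values were seen, had a mean of 0.381 CPM in controls and 0.384 CPM in knockouts. The 3 tested had a median log2 fold change of 1.16 with none called. S100a8 had 1.05, 0.737 and 1.98 CPM across the controls and 3.59, 4.61 and 2.11 CPM across the knockouts (1.40, 95% interval 0.41 to 2.39), and S100a9 had 2.42, 1.38 and 2.71 CPM across the controls and 5.89, 6.05 and 2.88 CPM across the knockouts (1.16, 95% interval 0.32 to 2.00), both with every knockout above every control. Mmp9 had 1.21, 0.737 and 0.397 CPM across the controls and 2.37, 0.832 and 1.88 CPM across the knockouts, with overlapping groups (1.14, 95% interval -0.03 to 2.32). In knockout heart 3, where Lyz2 was highest, S100a8 and S100a9 were at their lowest among the knockouts and still above every control, while Mmp9 was above every control and between the other knockouts.

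The 6 platelet genes, which bear on F13a1, summed to 22.2 to 31.9 CPM in controls and 25.9 to 40.2 CPM in knockouts. Pf4 was the largest of them in every heart. The 6 lymphatic endothelial genes, which bear on Mrc1, summed to 42.5 to 69.6 CPM in controls and 51.7 to 72.0 CPM in knockouts. Prox1 was the largest part in every heart, at 21.4 to 43.9 CPM in controls and 29.1 to 53.05 CPM in knockouts. Of these 6 genes 3 lay above 0, Prox1 among them (0.27), and 3 below, Reln among them (-0.77). Pf4, Prox1 and Reln were named after their values were seen. The 8 dendritic cell genes summed to 11.8 to 19.1 CPM in controls and 9.48 to 14.1 CPM in knockouts. Zbtb46 was the 1 that passed the filter, and it made up most of the sum in every heart. The lymphatic and dendritic sums therefore mostly follow 1 gene each. Whether Pf4, Prox1 and Zbtb46 come only from the cells of their lists was not tested. The 9 T and NK cell genes summed to 1.36 to 2.14 CPM in controls and 1.63 to 3.27 CPM in knockouts, and none passed the filter. The 6 mast cell genes summed to 2.34 to 3.32 CPM in controls and 2.12 to 3.63 CPM in knockouts and the 6 B and plasma cell genes to 3.91 to 5.69 CPM in controls and 4.69 to 8.34 CPM in knockouts. No gene of these 6 lists was called. The part of these cells in the members' values was not tested.

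Knockout heart 1, where Mrc1 and F13a1 were highest, was also highest for 5 of 5 red cell genes, 5 of 6 endothelial genes and 4 of 6 smooth muscle and pericyte genes. It was highest for 14.6% of all tested genes. Red cell genes summed to 6829 CPM there, against 3033 to 4702 CPM in controls. The 7 fibroblast genes summed to 591 to 681 CPM in controls and 688 to 841 CPM in knockouts. Dcn, named after its values were seen, made up most of this, at 491 to 540 CPM in controls and 528 to 689 CPM in knockouts. Of the 7, 0 had every knockout above every control. The 7 cardiomyocyte genes, markers of the labelled tissue, summed to 18726 to 22544 CPM in controls and 16030.1 to 21196 CPM in knockouts, 3 above 0 and 4 below. Of these, 2 had every knockout below every control, Myh6 (-0.64) and Ryr2 (-0.26), beside 5.84% of all tested genes. No gene of these 5 lists was called, and their part in the levels of Mrc1 and F13a1 was not tested.

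Knockout heart 3 stood apart as a library. Mitochondrial rRNA took 10.7% of its counts and 20.5% to 26.3% of the others', and the nuclear RNA Malat1 was at 668 deposited CPM there and 3317 to 7923 CPM elsewhere. Control heart 2 held the highest of both values, 26.3% and 7923 CPM. Its TMM factor was the lowest at 0.806, and that of knockout heart 3 the highest at 1.19. Control heart 2 was highest for 27.9% of all tested genes and lowest for 25.2%, knockout heart 3 for 33.9% and 34.3%. Deviations of these 2 hearts from their group means correlated at -0.70. Control heart 1 and knockout heart 3 expressed Xist (383 and 169 CPM), where the other 4 had at most 2.54 CPM. Without these 2 the log2 fold change was 0.17 for Adgre1, 0.10 for Lyz2, 0.60 for Mrc1 and -0.56 for Cd163. Ybx1 itself had 849, 810.2 and 895 CPM across the controls and 203, 171 and 109.7 CPM across the knockouts, in the direction of the labels (-2.40, 95% interval -3.01 to -1.79, edgeR adjusted p = 0.148, and 0.0154 without knockout heart 3).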

How the data were processed

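Heart RNA was extracted with TRIzol and libraries were made by priming on poly(A) tails and tagmentation, per the labels' protocols. The submitters' processing notes list the build mm39, the aligner name STAR 2.7.11, then Subread 2.1.1 with featureCounts, SAMtools 1.22.1 and edgeR 4.0.16, with the part of each in the work unstated. Annotation release, strand setting and handling of multi-mapping reads are not stated there. The authors deposited estimated counts, of which 21.3% to 22.7% of the detected ones were fractional (among the members F13a1 in 1 library), and CPM, which the authors computed per 1000000 counts of the same library.

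Counts were rounded, scaled by TMM and tested with edgeR 4.0.16 in R 4.3.3 (glmQLFTest, two-sided, Benjamini-Hochberg over 13717 genes, threshold 0.05). The common biological coefficient of variation was 0.253. The procedure was tested on simulated data. Standard errors come from the F statistic. Named were the members, Ybx1, paralogues and overlapping genes, up to 3 genes of a list by smallest p, and the 5 closest in pattern, unless stated. The 22 lists, the members among them, were chosen with earlier results of these data known. Alternatives were other scalings, no filter, DESeq2 1.42.0, limma-trend on log2(CPM + 0.5) with limma 3.58.1, a replicate block and leaving out libraries. Promoters are from RefSeq (GRCm38.p6).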

Additional observations from a re-analysis of the deposited data

How the results depend on the processing

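No member was called under any of the 13 alternatives run, and 8 or 9 of the 10 lay above 0 in each. Over all tested genes the count of calls was 0 with both other scalings and in limma-trend, 15 in DESeq2, 133 with no filter on low counts, and 0 to 3 with 1 library left out. It was 5 without the 2 libraries with Xist above 10 CPM, an alternative chosen after seeing the data, since the planned limit of 1 CPM left no residual degrees of freedom and was not run. Total-count scaling shifted the median of all genes by 0.16 and limma-trend by 0.13 on the log2 scale, and 9 members lay above that median in both. With 1 library left out the members' median log2 fold change was 0.17 to 0.39. Directions turned with 1 library left out for Fcgr3 (-0.058 to 0.31), Ccr2 (-0.10 to 0.24), F13a1 (-0.26 to 0.43), Fcgrt (-0.16 to 0.25), Lyve1 (-0.27 to 0.52), Mertk (-0.77 to 0.11) and Stab1 (-0.39 to 0.11), and without both Xist-expressing libraries for Fcgr3 (-0.13) and Fcgrt (-0.15). Leaving out 1 library also turned Cx3cr1 (-0.21 to 0.71), Grb2 (-0.11 to 0.09) and Ptprc (-0.34 to 0.12). The cause was not tested. With no filter edgeR called Nr4a1 (adjusted p = 0.0172), Cd48 (0.0484) and S100a8 (0.0367) higher in knockouts. Heart numbers were not taken to pair the samples. Deviations of same-numbered hearts correlated at -0.11, 0.45 and 0.58, and those of differently numbered hearts at -0.70 to 0.57. These values do not settle whether the hearts were paired. A fit with the replicate block called 5 genes and no member. In it 1807 genes had an unadjusted p under 0.05 by edgeR's test, beside 705 in the main fit. With 13 to 42 counts a library for Cd68, counting error limits the low members.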
